A study of Mus musculus with 29 samples.

Results

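The miR-23, miR-27 and miR-24 microRNAs are made from 2 short gene clusters of the mouse genome. The 6 mature products described here are mmu-miR-23a-3p, mmu-miR-23b-3p, mmu-miR-27a-3p, mmu-miR-27b-3p, mmu-miR-24-3p and mmu-miR-24-2-5p, where mmu marks the mouse and is left out from here on. They were chosen by name as rows of a table of miRNA counts, and all 6 had a value in every library, among 695 complete miRNAs of 1183 listed. The table comes from small RNA sequencing of the tibialis anterior, a muscle of the lower leg, and of serum from C57BL/6 mice. Each source was sampled from young mice of 6 months (5 muscle and 5 serum libraries), old mice of 24 months (5 and 4) and mice of 6 months in a model of muscle atrophy brought on by disuse (5 and 5). Both the young and the old mice carry the label control. The sources used here do not give how or for how long disuse was imposed, the sex of the mice, or whether a mouse gave both samples. Where nothing states that libraries of a group came from separate animals, p-values measure the spread between these libraries.

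A miRNA is cut from a hairpin precursor and guides a silencing complex to messenger RNAs, which it recognises mainly through its seed, bases 2 to 8 from the 5′ end. Each cluster is transcribed as 1 precursor that holds a miR-23, a miR-27 and a miR-24 hairpin, and each hairpin has a 5p arm and a 3p arm. In skeletal muscle miR-23a is known as a repressor of the ubiquitin ligases Fbxo32 and Trim63, which drive fibre wasting, and miR-27 as a regulator of myostatin and Pax3. Both clusters are also known from blood vessel endothelium and from blood cells. miR-23a-3p serves as a reference in serum work, where the ratio of the red cell miRNA miR-451a to it is used as a sign of red cell lysis.

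RefSeq (GRCm38.p6, the assembly called mm10) held a mature sequence for 5 of the 6 miRNAs. They are shown because the seeds decide which members form a family and because 1 pair of them is almost identical. Each is written 5′ to 3′ with the seed in capitals.
miR-23a-3p: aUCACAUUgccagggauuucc
miR-27a-3p: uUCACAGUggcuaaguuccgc
miR-27b-3p: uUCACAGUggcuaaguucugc
miR-24-3p: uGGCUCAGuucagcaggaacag
miR-24-2-5p: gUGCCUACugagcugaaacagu
miR-27a-3p and miR-27b-3p have the same seed, UCACAGU, and differ at 1 of 21 bases, C19U, counted from the 5′ end with the base of miR-27a-3p first. No other mature miRNA of the RefSeq table has that seed. miR-23a-3p differs from miR-27a-3p at 10 of 21 bases and has the seed UCACAUU. The seed of miR-24-2-5p, UGCCUAC, is shared only with miR-24-1-5p, the 5p arm of the other miR-24 hairpin. The seed of miR-24-3p, GGCUCAG, occurs in 5 mature names, of which only miR-24-3p was in the complete rows. The rule for a read that matches more than 1 miRNA was not found in the labels, so the split of reads within the miR-27 pair is uncertain to that extent. The same limit applies to the miR-23 pair, whose sequences were not compared here.

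The hairpins Mir23a, Mir27a and Mir24-2 lie on the plus strand of chromosome 8 within 404 bp (chr8:84208518-84208921), and Mir23b, Mir27b and Mir24-1 on the plus strand of chromosome 13 within 792 bp (chr13:63300484-63301275). Outside the miRNA genes, the chromosome 8 cluster lies between protein-coding genes, with Zswim4 nearest at 1757 bp, and the end of Mir24-2 overlaps the start of the long non-coding RNA Gm26532. On chromosome 13 the cluster is inside 2010111I01Rik, a protein-coding gene on the same strand. Mir23b is intronic in all 9 transcripts of that gene that span it, Mir27b falls in an exon of 1 of 9, and Mir24-1 in an exon of 4 of 11. An intron of 1 transcript of Fancc, on the opposite strand, also covers the cluster. Mature miR-23a-3p is at chr8:84208563-84208583, miR-27a-3p at chr8:84208727-84208747 and miR-24-2-5p at chr8:84208839-84208860. Mature miR-27b-3p is at chr13:63300760-63300780. miR-24-3p is made with the same sequence at chr8:84208875-84208896 and chr13:63301251-63301272, so its counts sum over both clusters. miR-23a-3p, miR-27a-3p and miR-24-2-5p are therefore particular to the chromosome 8 cluster, and miR-23b-3p and miR-27b-3p to the chromosome 13 cluster.

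Muscle libraries held 254624 to 5943445 counts over the complete rows and serum libraries 45176 to 309133. The young muscle libraries were shallower (median 535754) than the old (2825032) and disuse (2298437) ones. Levels are given as CPM, a miRNA's counts divided by its library's total and multiplied by 1000000, which compares a miRNA with the rest of its own library and says nothing of the amount of RNA per cell or per volume of serum. Fewer cells of a type and less of a miRNA per cell cannot be told apart in such samples. Muscle RNA was extracted with Trizol and put in at 2 µg a library, serum RNA with a serum and plasma kit from 300 µl and put in at 10 ng, so source and preparation cannot be told apart. A set of 6 striated muscle miRNAs (miR-1, miR-133 and miR-206 among them) summed to between 377020.2 and 523946 CPM in muscle and between 636 and 4654 CPM in serum, where 1 or 2 of them were at 0 throughout a group. The sources thus differed in the direction of their labels. miR-122-5p, a hepatocyte miRNA, was at 0 to 5.98 CPM in muscle and at 202 to 2838 CPM in serum. Summed counts of the 6 cluster products were 1.68% to 2.08% of a muscle library and 1.29% to 3.04% of a serum library.

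miR-27b-3p was by far the most counted product. Its level in young muscle libraries 1 to 5 was 18435, 17308, 16983, 15033 and 18181 CPM, in old muscle 17663, 16427, 15410.4, 15644 and 15469 CPM, and in disuse muscle 14552, 17009, 14838, 16326 and 14745 CPM. The 3 muscle groups overlapped, and the coefficient of variation was 5.91% to 7.83% within a group, the lowest of the 6 products. In serum its level was 24376, 13535, 18821, 8689 and 10856 CPM in the young, 18243, 9872, 19904 and 14676 CPM in the old, and 16550.3, 14008, 10548, 20056 and 13894 CPM in the disuse libraries. Serum spread both above and below the muscle range, with a coefficient of variation of 23.6% to 41.6%. miR-27b-3p ranked 11th to 15th of the miRNAs counted in a group by mean CPM in all 6 groups.

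The chromosome 8 partner miR-27a-3p, with the same seed, was counted far less. It stood at 540.3, 838, 459, 517 and 738 CPM in young muscle, at 718, 577, 615, 451.4 and 365 CPM in old muscle and at 531, 754, 499, 566 and 587 CPM in disuse muscle. Serum values were 1773, 1437, 1506, 997 and 974 CPM in young mice, 1607, 1131, 2374 and 1483 CPM in old mice and 1669, 1295, 1243, 2261 and 1287 CPM in disuse mice. Every serum library was above every muscle library, and within a source the 3 groups overlapped.

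miR-23a-3p and miR-23b-3p were close to equal in muscle and far apart in serum. miR-23a-3p was at 742, 829.1, 1192, 709 and 808 CPM in young muscle, at 1005, 1095, 775, 1607 and 749 CPM in old muscle and at 921, 925, 664, 823 and 661 CPM in disuse muscle. Young muscle 3 and old muscle 4 were the high libraries of their groups. In serum it was at 2057, 2668, 3317, 1128 and 2659 CPM in the young, 4005, 2723, 3266 and 2988 CPM in the old, and 3779, 3284, 3138, 2371 and 3444 CPM in the disuse libraries. Young serum 4, the lowest of these, was below young muscle 3, and apart from it every serum library exceeded every muscle library.

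For miR-23b-3p the order of the sources was the opposite. Young muscle had 697, 609, 1135, 528 and 746 CPM, old muscle 799.9, 884, 840.0, 1099.9 and 743 CPM, and disuse muscle 858, 809, 644, 949 and 651 CPM. Young serum had 479, 462, 549, 378 and 639 CPM, old serum 414, 123, 446 and 553 CPM, and disuse serum 327, 367, 281, 479 and 412 CPM. The old and disuse serum libraries all lay below the muscle libraries of their condition, while young serum overlapped young muscle. Serum values rest on 25 to 148 counts a library, and the 123 CPM of old serum 2 on 32.

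miR-24-3p, the product of both clusters, separated the sources most widely. It was at 257, 184, 303, 140.0 and 281 CPM in young muscle, 277, 233, 201, 347 and 232 CPM in old muscle, and 243, 310.4, 149, 218 and 237 CPM in disuse muscle. The serum libraries had 1279, 1750.3, 1984, 1637 and 1511 CPM (young), 1619.7, 1576, 2792 and 1926 CPM (old) and 1898, 1911, 1381, 3736 and 1615 CPM (disuse). The lowest serum library was above the highest muscle library, and disuse serum 4 stood far above the other serum libraries.

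miR-24-2-5p, the opposite arm of the chromosome 8 miR-24 hairpin, was the least counted product in muscle. It was at 33.5, 114, 43.0, 31.7 and 61.0 CPM in young muscle, 85.0, 127, 72.2, 102 and 34.4 CPM in old muscle, and 78.2, 79.0, 31.4, 84.8 and 74.0 CPM in disuse muscle, from 8 to 505 counts. Young serum had 419, 439, 478, 117 and 218 CPM, old serum 665, 395, 475 and 531 CPM, and disuse serum 551, 421, 400.4, 411 and 435 CPM, from 15 to 127 counts. Within each condition serum and muscle did not overlap, although young serum 4 was only just above young muscle 2.

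**Figure D1:**
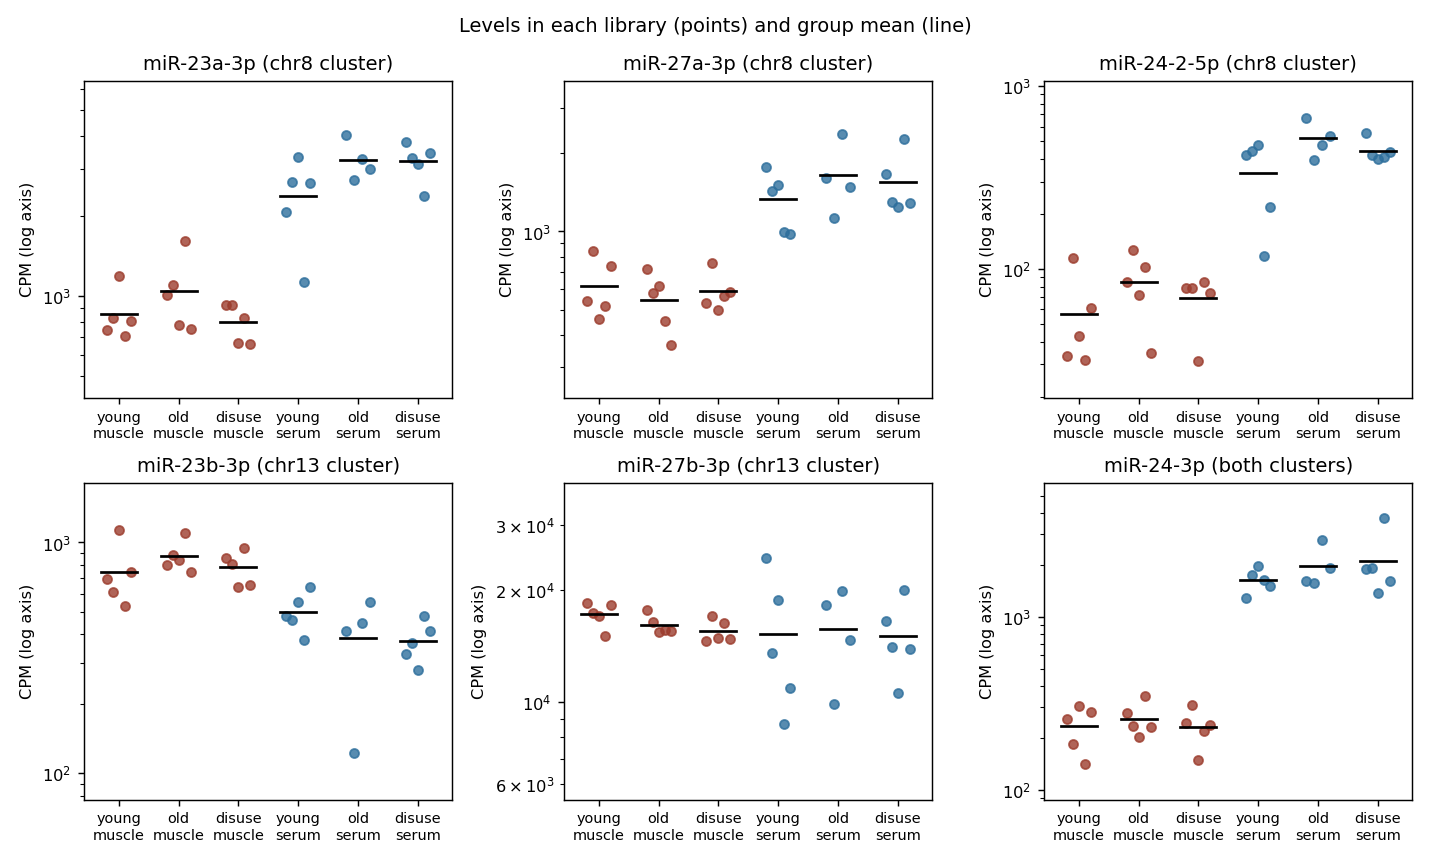
Level of each product in each library (points, CPM on a log axis) and the group mean (line), with muscle in red and serum in blue. miR-27a-3p and miR-24-3p are above the muscle libraries in every serum library, miR-23b-3p is lower in serum, and miR-27b-3p has group means between 15011 and 17188 CPM in both sources.

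Across the 6 groups the mean of miR-24-3p ran from 232 ± 57.7 CPM (SD, n = 5) in disuse muscle to 2108 ± 936 CPM (n = 5) in disuse serum, and that of miR-23a-3p from 799 ± 131 CPM in disuse muscle to 3246 ± 553 CPM (n = 4) in old serum. The orders are those of the means, and no pair of groups of the same source passed the edgeR test given below, so neighbours of 1 source in an order were not separated. miR-27a-3p ran from 545 ± 139 CPM in old muscle to 1649 ± 524 CPM in old serum, and miR-24-2-5p from 56.7 ± 34.2 CPM in young muscle to 517 ± 114 CPM in old serum. miR-23b-3p ran the other way, from 873 ± 137 CPM in old muscle through 782 ± 133 CPM in disuse and 743 ± 234 CPM in young muscle to 502 ± 98.2 CPM in young, 384 ± 184 CPM in old and 373 ± 76.4 CPM in disuse serum. The means of miR-27b-3p interleaved the sources, from 17188 ± 1345 CPM in young muscle to 15011 ± 3535 CPM in disuse serum.

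Serum was compared with muscle within each condition with edgeR's quasi-likelihood test on the counts, scaled by TMM factors and adjusted by Benjamini-Hochberg over all miRNAs tested. Of the 6 products, 5 passed an adjusted p of 0.05 in young mice, 6 in old mice and 6 in disuse mice, where 76.3%, 69.3% and 86.5% of all miRNAs tested passed, so that passing alone does not set them apart. Higher in serum were 3, 4 and 4 of the 6 in young, old and disuse mice (32.6%, 24.7% and 38% of all miRNAs tested), and lower 2 in each (43.7%, 44.6% and 48.4%). The members that were higher were miR-24-3p and products particular to chromosome 8, and those that were lower were the chromosome 13 products, of which miR-27b-3p changed sign with thinned libraries in young (0.0041) and old mice (0.07). Their median log2 fold change of serum over muscle was 0.73, 1.21 and 1.21 in young, old and disuse mice, against -0.34, -0.87 and -0.36 over all miRNAs tested.

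miR-24-3p rose the most, with a log2 fold change of 2.35 ± 0.34 (SE) in young, 2.55 ± 0.26 in old and 2.64 ± 0.26 in disuse mice, or 5.09-, 5.85- and 6.23-fold. For miR-24-2-5p, from the chromosome 8 hairpin, the log2 fold changes were 1.80 ± 0.45, 2.22 ± 0.32 and 2.08 ± 0.23, or 3.47-, 4.65- and 4.21-fold. miR-23a-3p was higher by log2 fold changes of 0.97 ± 0.31 (edgeR adjusted p = 0.0082), 1.25 ± 0.24 and 1.53 ± 0.19; without the filter on low counts the value in young mice was 0.71 and not called (adjusted p = 0.0647). For miR-27a-3p the log2 fold change was 1.16 ± 0.27 in old and 0.89 ± 0.18 in disuse mice, both past the threshold, and 0.49 ± 0.33 in young mice (edgeR adjusted p = 0.178), where DESeq2, library totals, upper-quartile factors and thinned libraries each gave a call (log2 fold change 0.63 to 1.32), as did leaving out young serum 5 (0.71).

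miR-23b-3p was lower in serum by a log2 fold change of -1.03 ± 0.30, -1.71 ± 0.30 and -1.55 ± 0.19 in young, old and disuse mice, or 2.04-, 3.28- and 2.94-fold. The value in young mice lost its call with scaling to library totals (-0.58, edgeR adjusted p = 0.0773) and with libraries thinned to 1 depth (-0.09). miR-27b-3p had log2 fold changes of -0.78 ± 0.28, -0.48 ± 0.21 and -0.54 ± 0.15, which passed under TMM scaling but were -0.17, -0.04 and -0.05 with library totals, with no call. Leaving out 1 library ended the call of miR-27b-3p in old mice for 8 of the 9 libraries (log2 fold change -0.67 to -0.31 over all 9) and in disuse mice for disuse serum 3 (-0.34). Scaling to library totals moved the median of all miRNAs tested from -0.34 to 0.16 in young, from -0.87 to -0.48 in old and from -0.36 to 0.13 in disuse mice. The calls of miR-27b-3p thus depend on the scaling. Sizes of the other changes moved with the settings too. Over settings that kept all libraries, miR-24-3p ran from 2.12 to 3.22 in young, 2.24 to 3.03 in old and 2.52 to 3.17 in disuse mice, called in each. For miR-23a-3p in young mice the range was 0.71 to 1.54.

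**Figure D2:**
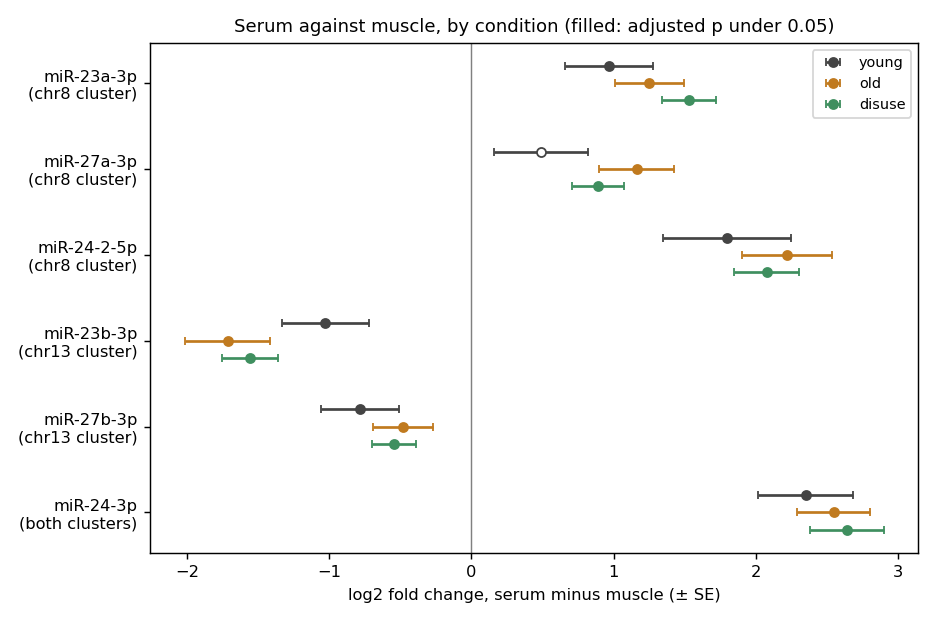
Log2 fold change of serum over muscle for each product (x axis, points with SE bars) in young, old and disuse mice; filled points passed an adjusted p of 0.05. The chromosome 8 products and miR-24-3p lie to the right of 0 and miR-23b-3p and miR-27b-3p to the left, and miR-27a-3p in young mice is the open point at 0.49.

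Marker lists of erythrocytes and endothelium also separated the sources, while those of leukocytes and of fibroblasts and smooth muscle did not. A list of 4 erythrocyte miRNAs summed to 39754 to 91909.8 CPM in muscle libraries and to 127715 to 355652 CPM in serum libraries. That list includes miR-486-5p, which muscle makes too, so its sum in muscle is not a measure of red cells alone. Its member miR-451a was 0.0232 to 0.164 times the count of miR-23a-3p in muscle and 1.49 to 11.9 times in serum. The 2 endothelial miRNAs summed to 780.2 to 2347 CPM in muscle and to 3763 to 12652 CPM in serum. The 5 leukocyte miRNAs overlapped between the sources, at 12322 to 30249 CPM in muscle and 10714 to 22788 CPM in serum. Fibroblast and smooth muscle miRNAs, 4 of 5 with complete rows, overlapped as well, at 4910 to 9238 CPM in muscle and 2056 to 12098 CPM in serum. No miRNA of the erythrocyte, endothelial or leukocyte lists was at 0 throughout a group. The part of these cells in the differences of the cluster products was not tested.

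Ratios of 2 members within a library do not depend on how libraries are scaled, so the paralogues were compared in that way, as the log2 of the ratio of counts with 0.5 added to each. For the miR-23 pair, miR-23b-3p over miR-23a-3p was 0.940, 0.734, 0.952, 0.745 and 0.924 in young muscle and 0.234, 0.174, 0.167, 0.336 and 0.243 in young serum. It was 0.796, 0.807, 1.08, 0.685 and 0.992 in old muscle against 0.105, 0.0457, 0.137 and 0.188 in old serum, and 0.931, 0.875, 0.971, 1.15 and 0.985 in disuse muscle against 0.0872, 0.113, 0.0904, 0.202 and 0.120 in disuse serum. No serum library overlapped a muscle library. The log2 ratio was -0.23 ± 0.19, -0.22 ± 0.27 and -0.03 ± 0.15 (SD) in young, old and disuse muscle, and -2.16 ± 0.41, -3.24 ± 0.88 and -3.10 ± 0.49 in serum.

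The serum ratio was thus lower by 3.82-, 8.16- and 8.39-fold in young, old and disuse mice (two-sided exact permutation p = 0.0079 in each, the smallest that 5 against 5 or 5 against 4 libraries allow; adjusted p = 0.0253 over 35 ratio tests). miR-23a-3p accordingly made up 54.0%, 53.7% and 50.5% of the miR-23 counts in young, old and disuse muscle and 81.5%, 89.7% and 89.3% in serum (means over libraries).

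For the miR-27 pair, miR-27b-3p exceeded miR-27a-3p by 34.0, 20.7, 36.9, 29.03 and 24.6 times in young muscle and by 13.7, 9.40, 12.5, 8.70 and 11.1 times in young serum. Old muscle had 24.6, 28.5, 25.0, 34.6 and 42.3 times against 11.3, 8.71, 8.38 and 9.83 times in old serum, and disuse muscle 27.4, 22.5, 29.6, 28.9 and 25.1 times against 9.90, 10.8, 8.47, 8.86 and 10.8 times in disuse serum. Serum was below muscle in every library here too, by a log2 difference of -1.38, -1.68 and -1.45 in young, old and disuse mice (exact permutation p = 0.0079 in each, adjusted p = 0.0253). In both pairs, then, the chromosome 8 paralogue had the larger share in serum, although miR-27b-3p still outnumbered miR-27a-3p there. miR-27b-3p was 96.5%, 96.7% and 96.4% of the miR-27 counts in young, old and disuse muscle and 91.5%, 90.4% and 90.6% in serum.

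Products of the same cluster were compared in the same way. The log2 ratio of miR-27a-3p to miR-23a-3p, both from chromosome 8, was -0.48 ± 0.54, -0.92 ± 0.59 and -0.44 ± 0.24 in young, old and disuse muscle and -0.77 ± 0.56, -1.01 ± 0.39 and -1.07 ± 0.57 in serum. Groups overlapped, and no difference between serum and muscle passed (exact permutation, adjusted p = 0.556, 0.816 and 0.130); without disuse serum 4 the disuse difference went from -0.63 to -0.87 and passed (adjusted p = 0.0214). The log2 ratio of miR-27b-3p to miR-23b-3p, both from chromosome 13, was 4.58 ± 0.39, 4.22 ± 0.24 and 4.32 ± 0.21 in muscle and 4.84 ± 0.60, 5.48 ± 0.66 and 5.31 ± 0.22 in serum. It was higher in serum by 1.26 in old and 0.99 in disuse mice (exact permutation p = 0.0079, adjusted p = 0.0253 in each), with no overlap, and by 0.26 in young mice (adjusted p = 0.556). In old mice this call, and those of the miR-23 and miR-27 pairs above, was lost on leaving out any 1 of the 9 libraries (exact permutation, adjusted p = 0.0521 to 0.0769), which leaves fewer permutations. The unadjusted exact permutation p was then 0.0286 or 0.0179, in each case the smallest that the remaining libraries allow. The 2 chromosome 13 products thus did not keep 1 ratio across the sources in old and disuse mice. For miR-24-3p over miR-23a-3p, given as a description, the mean log2 ratio was -1.90, -1.99 and -1.81 in young, old and disuse muscle and -0.46, -0.74 and -0.68 in serum. In young serum 4 and disuse serum 4 miR-24-3p exceeded miR-23a-3p, by 1.45 and 1.58 times, and in the other serum libraries it was below it.

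**Figure D3:**
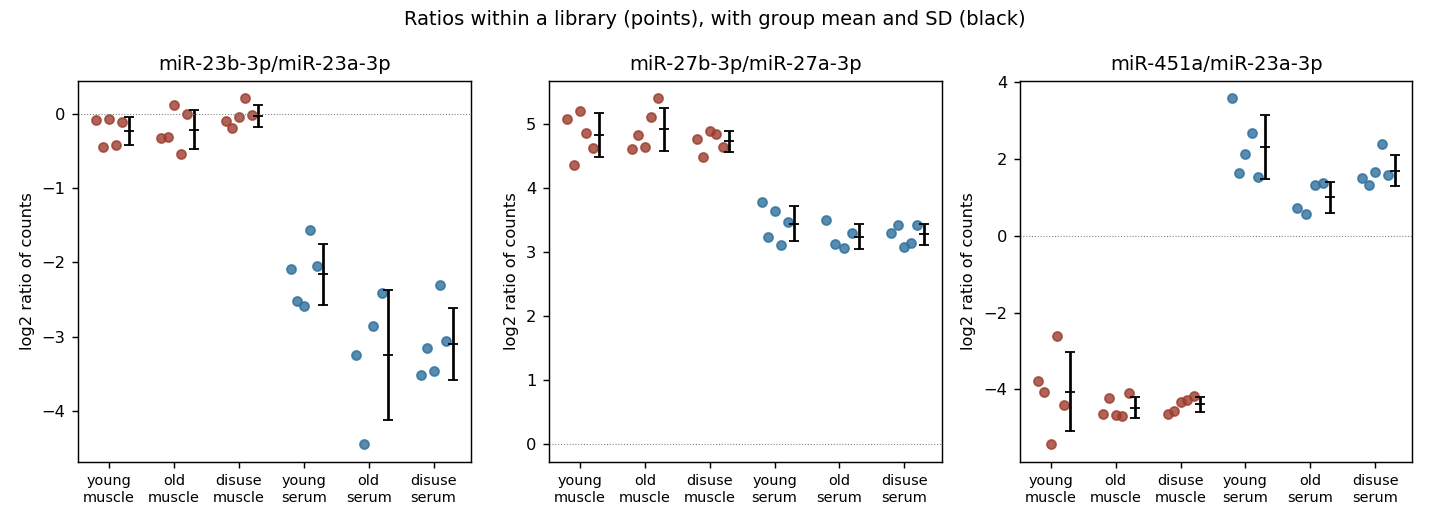
Log2 ratio of counts within each library (points) with the group mean and SD (black), for miR-23b-3p over miR-23a-3p, miR-27b-3p over miR-27a-3p and miR-451a over miR-23a-3p. In the left and centre panels every serum library lies below every muscle library, and in the right panel every serum library lies above.

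The remaining arms of the 6 hairpins were counted rarely. Of 5 further arms, 4 had complete rows. miR-27a-5p and miR-27b-5p totalled 487 and 1048 counts over the 15 muscle libraries, so the chromosome 8 arm was 31.7% of the pair (Wilson 95% interval 29.4% to 34.1%). Over the 14 serum libraries they totalled 40 and 19 counts, or 67.8% (55.1% to 78.3%). Unlike the 3p arms, these arms do not share a seed, which is GGGCUUA in miR-27a-5p and GAGCUUA in miR-27b-5p. miR-24-1-5p, from chromosome 13, was 119 of the 2737 counts of both miR-24 5p arms in muscle (4.35%, 3.65% to 5.18%) and 2 of 916 in serum (0.218%, 0.0599% to 0.793%). These intervals cover counting error only. The shares were chosen for description after their values were seen, and were not tested between the sources. miR-23a-5p had 14, 21 and 30 counts in young, old and disuse muscle and 1 in all serum libraries. Serum counts were few, and only miR-27a-5p and miR-27b-5p in old mice passed the filter on low counts. Their log2 fold changes of serum over muscle were -1.58 and -2.81 (edgeR adjusted p = 0.0354 and 0.0021). The call of miR-27a-5p was lost with library totals, upper-quartile factors and the replicate block. Without the filter, miR-27a-5p was at 0.26 in young and -0.04 in disuse mice, neither called, and miR-27b-5p at -2.32 and -2.25, both called.

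Old and disuse mice were each compared with young mice within muscle and within serum, by the same edgeR test. In muscle, 0 of the 6 products passed in old against young, disuse against young or old against disuse, where 5.87%, 0.293% and 3.52% of the 341 miRNAs tested passed. In serum, 0 of 6 passed in each of the 3 comparisons, where 9.7%, 0% and 2.42% of 165 miRNAs passed. At an unadjusted p under 0.05, 0 products passed in the 3 muscle comparisons, and 1, 0 and 0 in old against young, disuse against young and old against disuse serum. The 1 product was miR-24-2-5p, whose p ranked 25th among the 165 miRNAs tested, so passing at that level does not set it apart. DESeq2 called 0 of 6 in all 6 comparisons. Over all miRNAs in disuse against young serum, 20 had an unadjusted edgeR p under 0.05 and DESeq2 called 0. The median log2 fold change of the 6 products was 0.17 and 0.05 in old and disuse against young muscle, against -0.01 and -0.00 over all miRNAs tested, and 0.27 and 0.23 in serum, against -0.09 and -0.09. A product that missed the threshold is not thereby shown to be equal between groups.

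The largest difference with age was that of miR-24-2-5p in serum, at 517 ± 114 CPM in old against 334 ± 158 CPM in young mice, a log2 fold change of 0.71 ± 0.27 (edgeR adjusted p = 0.118, and 0.0782 to 0.470 over the other settings). The 4 old libraries lay within or above the young range, in which young serum 4 and 5 were low. The miR-23 pair had log2 fold changes of opposite sign in serum. miR-23a-3p was at 0.50 ± 0.25 in old and 0.46 ± 0.24 in disuse against young mice, and miR-23b-3p at -0.50 ± 0.31 and -0.46 ± 0.28 (edgeR adjusted p = 0.255, 0.443, 0.389 and 0.559). miR-27a-3p was at 0.31 ± 0.19 and 0.20 ± 0.18, miR-24-3p at 0.24 ± 0.27 and 0.26 ± 0.26, and miR-27b-3p at 0.09 ± 0.19 and 0.01 ± 0.18.

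In muscle, as in serum, no difference passed. miR-23a-3p had log2 fold changes of 0.26 ± 0.19 in old and -0.01 ± 0.19 in disuse against young muscle, and miR-23b-3p 0.22 ± 0.19 and 0.16 ± 0.19. miR-24-2-5p was at 0.40 ± 0.33 and 0.31 ± 0.33, miR-24-3p at 0.13 ± 0.23 and 0.10 ± 0.23, miR-27a-3p at -0.20 ± 0.22 and -0.00 ± 0.22, and miR-27b-3p at -0.10 ± 0.14 and -0.07 ± 0.14. The most precisely measured of them, miR-27b-3p, was thus within 1 SE of 0 in both comparisons. Whether age or disuse acted differently in serum than in muscle was tested by interaction terms over all 29 libraries: 0 of 6 products passed for either (0.83% and 0% of 241 miRNAs passed), with unadjusted p under 0.05 in 0 and 1 of them. The one was miR-23a-3p with disuse, at 0.69 ± 0.32 (edgeR adjusted p = 0.454). DESeq2 called 0 of 6 for both terms, and for disuse it called 0 of all miRNAs, of which edgeR had 24 at an unadjusted p under 0.05.

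**Figure D4:**
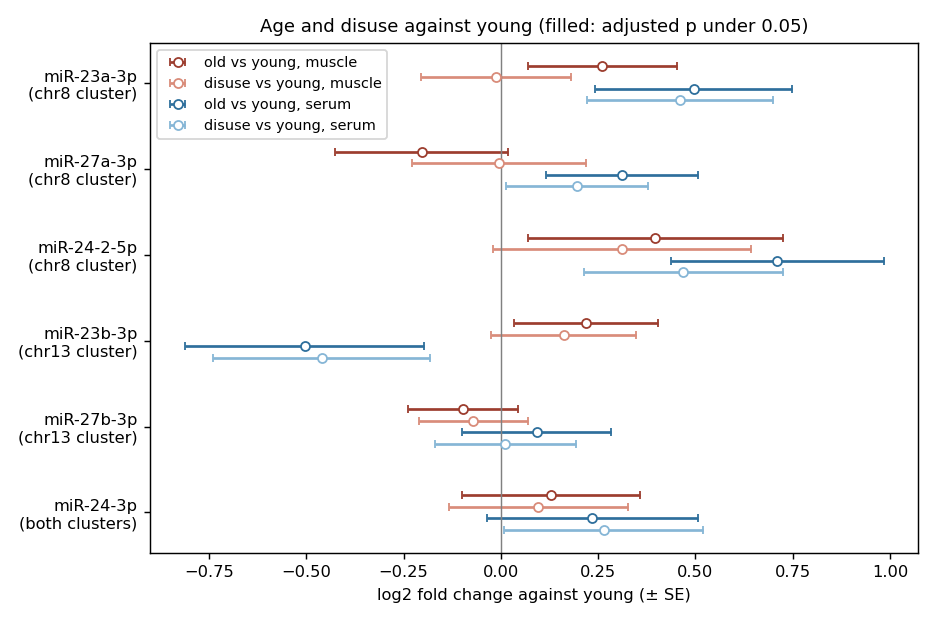
Log2 fold change of each product in old and disuse mice against young mice (x axis, points with SE bars), in muscle (red) and serum (blue). All points are open because 0 of the 6 products passed an adjusted p of 0.05; in serum miR-23a-3p lies near 0.5 and miR-23b-3p near -0.5.

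Within-library ratios were also compared with age and disuse. The log2 ratio of miR-23b-3p to miR-23a-3p in serum was lower by 1.08 in old than in young mice (exact permutation p = 0.0317, adjusted p = 0.0794) and lower by 0.94 in disuse than in young mice (p = 0.0238, adjusted p = 0.0641). Neither passed after adjustment, and each group overlapped the young one; without disuse serum 4 the disuse difference went to -1.13 and passed (adjusted p = 0.0214). In muscle the same ratio differed by 0.01 and 0.20 (exact permutation, adjusted p = 0.968 and 0.278). The miR-27 ratio differed from young by 0.09 and -0.10 in old and disuse muscle and by -0.20 and -0.17 in old and disuse serum, with adjusted p between 0.382 and 0.755 by the same exact test. The ratio of miR-27b-3p to miR-23b-3p differed from young by -0.36 in old and -0.26 in disuse muscle (adjusted p = 0.260 and 0.344). Leaving out young muscle 3, in which miR-23b-3p was high, took these to -0.53 and -0.43, both with an exact permutation adjusted p of 0.0427. In serum it was 0.64 higher in old and 0.47 higher in disuse than in young mice (adjusted p = 0.307 and 0.293); without young serum 1 the disuse value was 0.68 (adjusted p = 0.0463).

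As a reference for red cell lysis, miR-23a-3p was read against miR-451a. miR-451a stood at 24510.3, 8216, 14517, 7204 and 7731 CPM in young serum, 6554, 4058, 8138 and 7747 CPM in old serum and 10644, 8259, 9807, 12389 and 10348 CPM in disuse serum. Its ratio to miR-23a-3p was 11.9, 3.08, 4.37, 6.38 and 2.90 in young serum, 1.64, 1.49, 2.49 and 2.59 in old serum, and 2.82, 2.51, 3.12, 5.22 and 3.00 in disuse serum. Every old library was below every young library, with young serum 1 highest of all. The list of 4 erythrocyte miRNAs summed to 208315 to 355652 CPM in young, 127715 to 265981 CPM in old and 192238 to 295548 CPM in disuse serum. That list includes miR-451a and also miR-486-5p, which muscle makes too. On the log2 scale old serum was lower than young serum by 1.31 (exact permutation p = 0.0238, adjusted p = 0.0641) and disuse serum lower by 0.62 (adjusted p = 0.333), and neither difference passed. In muscle the ratio lay between 0.0232 and 0.164. Serum exceeded muscle by log2 differences of 6.37, 5.46 and 6.08 in young, old and disuse mice (exact permutation p = 0.0079, adjusted p = 0.0253 in each). The call in old mice was lost, as for the other ratios, on leaving out any 1 library (5.34 to 5.60). Because miR-23a-3p had a log2 fold change of 0.50 in old against young serum, the ratio moves with its reference as well as with miR-451a; the share of each was not tested.

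How the products varied together was examined over the 15 muscle and, separately, the 14 serum libraries, on log2 CPM scaled by TMM, in 20 relations among the 5 3p products. In muscle the paralogues went together: miR-23a-3p and miR-23b-3p had Pearson's r = 0.74 (permutation p = 0.0020, adjusted p = 0.0197) and Spearman's rho = 0.76 (permutation p = 0.0017, adjusted p = 0.0336). The r was 0.67 without the 2 libraries farthest from the median of miR-23a-3p and 0.75 between deviations from the group means. miR-27a-3p and miR-27b-3p had r = 0.69 (permutation p = 0.0045, adjusted p = 0.0291) and rho = 0.62 (p = 0.0153, adjusted p = 0.0849), with r = 0.62 without the 2 farthest libraries and 0.70 between deviations. These pairs lie on different chromosomes. The rule for reads that match both members of a pair was not found. The split of reads within each pair, and with it these r values, is uncertain to that extent.

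For the miR-23 and miR-27 products of the same cluster no relation passed in muscle, and their r values were not tested against those of the paralogues. miR-23a-3p and miR-27a-3p had r = -0.10 and rho = 0.01 (permutation p = 0.725 and 0.965; r = 0.47 without the 2 farthest libraries), and miR-23b-3p and miR-27b-3p had r = 0.08 and rho = -0.04 (permutation p = 0.774 and 0.884; r = -0.19). miR-24-3p went with both miR-23 members: r = 0.67 and rho = 0.68 with miR-23a-3p (permutation p = 0.0058 and 0.0060, adjusted p = 0.0291 and 0.0602; r = 0.66 without the 2 farthest), and r = 0.74 and rho = 0.61 with miR-23b-3p (p = 0.0019 and 0.0170, adjusted p = 0.0197 and 0.0849; r = 0.55). With the miR-27 members its r was 0.17 and 0.48 (permutation p = 0.542 and 0.0677; rho = 0.13 and 0.42, p = 0.638 and 0.117). In serum no relation of the 10 passed. The highest was between miR-27a-3p and miR-24-3p, at r = 0.63 and rho = 0.53 (permutation p = 0.0189 and 0.0563, adjusted p = 0.0756 and 0.225), and r was 0.32 without the 2 farthest libraries. The paralogues had r = -0.28 (miR-23 pair; rho = -0.45) and r = 0.41 (miR-27 pair; rho = 0.18) there, with permutation p = 0.319 and 0.108, and 0.148 and 0.542. All values of a library share its total and its scaling factor.

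**Figure D5:**
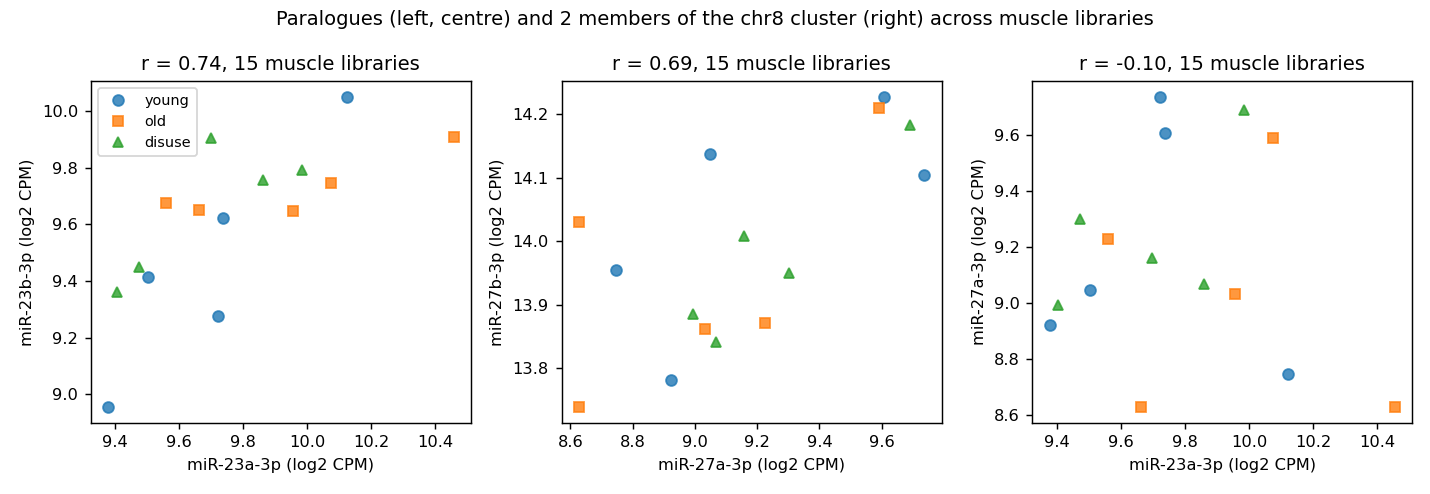
Log2 CPM of 2 products in each of the 15 muscle libraries, for the miR-23 pair (left), the miR-27 pair (centre) and miR-23a-3p with miR-27a-3p of the same cluster (right), with young, old and disuse libraries marked. The paralogues rise together (r = 0.74 and 0.69), and in the right panel r = -0.10. Without the 2 libraries farthest from the median of the x axis product, r is 0.67, 0.62 and 0.47 from left to right.

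The miRNAs whose levels were most like those of each product were named as the 3 with the highest Pearson's r, among 333 other miRNAs in muscle and 159 in serum, as a description without a test. In muscle miR-27a-3p was most like miR-22-3p (r = 0.87), miR-126a-3p (0.77) and miR-542-5p (0.73). For miR-27b-3p they were miR-542-5p (0.79), miR-199b-3p (0.78) and miR-199a-3p (0.77). miR-23a-3p was nearest to miR-125a-5p (0.71), miR-155-5p (0.70) and miR-505-3p (0.70), and miR-23b-3p to miR-221-3p (0.77), miR-199a-5p (0.73) and miR-125a-5p (0.73). miR-24-3p was nearest to miR-99a-5p (0.78), miR-152-3p (0.71) and miR-103-3p (0.70). Thus miR-125a-5p is shared by the miR-23 pair and miR-542-5p by the miR-27 pair. miR-126a-3p is an endothelial miRNA of the marker lists, and the miR-199a family is known from fibroblasts.

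Serum neighbours were different names for 4 of the 5 products. miR-23b-3p was most like miR-99a-5p (r = 0.90), let-7e-5p (0.71) and miR-148b-3p (0.69). miR-23a-3p was most like miR-501-3p (0.80), miR-10b-5p (0.79) and miR-10a-5p (0.78), miR-24-3p like miR-99b-5p (0.73), miR-484 (0.67) and miR-1198-5p (0.60), and miR-27a-3p like miR-132-3p (0.62), miR-532-5p (0.49) and miR-484 (0.48). Only miR-27b-3p kept a neighbour of its muscle list, miR-199b-3p (0.69), beside miR-203-3p (0.67) and miR-148a-5p (0.65). Over 14 libraries and 159 candidates the highest r is drawn from many, so these names are a description of the libraries at hand.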

How the data were processed

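Small RNA libraries from muscle and serum were prepared with a TruSeq Small RNA kit with up to 15 PCR cycles and a gel cut at 145 to 160 bp, per the labels' protocols. The authors aligned reads to mm10 with Bowtie, per the submitters' processing notes. Bowtie's version was not given in the sources used here, nor were the annotation and the handling of multiply matching reads. The deposited table holds raw counts per mature miRNA, whole numbers with library-specific totals, and its columns were matched to samples by name. Of 1183 rows, 488 had 28 values instead of 29, so the last column of the deposited table has gaps there. Which column these rows lack was not settled, and the first 13 values of each were 0. They were not used here (0.0518% of muscle counts), so the shares over all miRNAs tested leave them out. In complete rows every column was read as counts.

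Counts of the 695 complete miRNAs were tested with edgeR 4.0.16 (R 4.3.3; TMM, filterByExpr by group, glmQLFTest, Benjamini-Hochberg over all miRNAs tested). Separate fits were made for muscle, serum, each condition across sources, and all libraries with interactions. The SE is the absolute log2 fold change over the square root of F. DESeq2 1.42.0, other scalings, no filter, thinned libraries, leaving out each library and the replicate number as a block were alternatives. Ratios used log2 of counts plus 0.5 and two-sided exact permutation tests over every split of the libraries (numpy 2.4.6). Correlations used 100000 resamples of log2 CPM with a prior count of 2. Spearman's rho and Wilson intervals came from scipy 1.17.1. The edgeR script was tested on simulated data for the muscle, serum and young serum against muscle fits. Log2 changes of 1 were recovered in 83.3%, 65% and 43.5%, and of 2 in 100%, 94.4% and 100%. False calls were 6.1%, 3.23% and 5.71% of all calls. Changes of the size seen with age or disuse in serum can thus be missed. Library pairs within groups all differed beyond sampling noise (56 pairs). A count of 0 allows up to 3 counts, or 0.505 to 11.8 CPM in muscle and 9.70 to 66.4 CPM in serum; counts without molecular identifiers are not independent molecules. The products described were fixed by name, neighbours by the 3 highest r, and these members and all lists were chosen with earlier results of these data known.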

Additional observations from a re-analysis of the deposited data

Results flagged for a closer look

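Within-group gaps were checked by Dixon's ratio in 66 groups of values, 6 products and 5 ratios in each of 6 groups, and 6 held a library beyond the 95% limit, where chance alone gives 3.3. miR-23a-3p stood at 1192 CPM in young muscle 3, against 709 to 829.1 CPM in the other young muscle libraries. In the same library the log2 ratio of miR-27b-3p to miR-23b-3p was 3.90, the lowest of its group. miR-24-3p stood at 3736 CPM in disuse serum 4, against 1381 to 1911 CPM in the others, and there the log2 ratio of miR-27a-3p to miR-23a-3p was -0.068, the highest of its group. miR-24-2-5p was low in disuse muscle 3, at 31.4 CPM from 8 counts in the shallowest muscle library, and high in disuse serum 1, at 551 CPM against 400.4 to 435 CPM.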

How the results depend on the processing

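The members called in each comparison stayed within 1.5 times of the count under every alternative and left-out library except in young serum against muscle. There, libraries thinned to 1 depth gave 3, with miR-24-2-5p removed by the filter on low counts and so not tested. Of the values of single products under the alternatives that kept all libraries, 363 kept their direction and side of the threshold, 9 lost a call, 4 gained one and 19 changed sign, of which only those of miR-27b-3p in young and old serum against muscle came from called values. Serum values rest on fewer counts than muscle values, and the cause of each change was not tested.

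With upper-quartile factors miR-24-3p was at -0.052 in old and -0.085 in disuse against young muscle, and miR-23a-3p at -0.037 in old against disuse serum. With thinned libraries miR-27a-3p was at 0.078 in disuse against young muscle, miR-24-3p at 0.082 in old against disuse serum, and miR-27b-3p at 0.0041 and 0.070 in young and old serum against muscle. Thinning also took the interactions with age to -0.48 (miR-24-2-5p) and -0.27 (miR-24-3p) and those with disuse to 0.090 (miR-23b-3p) and -0.53 (miR-24-2-5p). miR-27b-3p in old against disuse muscle was at 0.025 with DESeq2, 0.057 with library totals and 0.068 without the filter. Library totals gave -0.023 for it in disuse against young serum, and the fit without the filter gave -0.034 in old against disuse serum, where miR-23a-3p was at -0.070.

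Same-numbered libraries had a median correlation of deviations of -0.01 in muscle (over 0.1 in 2 of 15 pairs), 0.07 in serum (5 of 13) and 0.008 over all (15 of 70). Of the 29 libraries, 7 correlated best with their own number. Within a source such pairs always join different conditions, and the pairs over all mix these with pairs that could share a mouse. The check therefore cannot settle whether a mouse gave both samples. With the replicate number as a block, miR-27a-3p in disuse against young muscle was at 0.011, miR-23b-3p in old against disuse serum at 0.036, and miR-27b-3p in old serum against muscle lost its call at -0.49 (edgeR adjusted p = 0.0901). Blocked ratios of serum against muscle in young, old and disuse mice were -1.38, -1.56 and -1.45 (miR-27b-3p to miR-27a-3p), -1.93, -2.98 and -3.07 (miR-23b-3p to miR-23a-3p) and 6.37, 5.56 and 6.08 (miR-451a to miR-23a-3p), and those of miR-27b-3p to miR-23b-3p 1.30 in old and 0.99 in disuse mice. None of these can pass with 5 or 4 pairs, which allow an exact p of 0.0625 or 0.125 at best.

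Leaving out 1 library gave, in old against young muscle, -0.37 to 0.018 for miR-27a-3p and -0.17 to 0.027 for miR-27b-3p. In disuse against young muscle it gave -0.10 to 0.10 (miR-23a-3p), -0.061 to 0.21 (miR-24-3p) and -0.14 to 0.16 (miR-27a-3p). In old against disuse muscle the ranges were -0.0042 to 0.26 (miR-24-2-5p), -0.033 to 0.18 (miR-24-3p) and -0.10 to 0.083 (miR-27b-3p). In serum they were -0.049 to 0.21 for miR-27b-3p in disuse against young, and in old against disuse -0.11 to 0.11 (miR-23a-3p), -0.31 to 0.22 (miR-23b-3p), -0.14 to 0.17 (miR-24-3p) and -0.021 to 0.20 (miR-27a-3p). For serum against muscle they were 0.28 to 0.71 for miR-27a-3p in young mice, -0.67 to -0.31 for miR-27b-3p in old and -0.56 to -0.34 in disuse mice. The interactions ran over -0.0075 to 0.54 (miR-23a-3p), -0.15 to 0.47 (miR-24-3p) and -0.0049 to 0.47 (miR-27b-3p) with age, and over -0.10 to 0.57 (miR-24-2-5p) with disuse.

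Ratios without 1 library ranged, in old against young muscle, over -0.026 to 0.19 (miR-27b-3p to miR-27a-3p), -0.070 to 0.10 (miR-23b-3p to miR-23a-3p) and -0.53 to -0.26 (miR-27b-3p to miR-23b-3p). In disuse against young muscle they ranged over -0.19 to 0.16 (miR-27a-3p to miR-23a-3p), -0.43 to -0.19 (miR-27b-3p to miR-23b-3p) and -0.68 to 0.031 (miR-451a to miR-23a-3p). In disuse against young serum they ranged over -1.13 to -0.79 (miR-23b-3p to miR-23a-3p) and 0.28 to 0.68 (miR-27b-3p to miR-23b-3p). In old serum against muscle they were -1.76 to -1.56, -3.31 to -2.63, -0.32 to 0.057, 0.99 to 1.52 and 5.34 to 5.60 for the 5 ratios in the order miR-27b-3p to miR-27a-3p, miR-23b-3p to miR-23a-3p, miR-27a-3p to miR-23a-3p, miR-27b-3p to miR-23b-3p and miR-451a to miR-23a-3p. The ratio of miR-27a-3p to miR-23a-3p ran over -0.87 to -0.54 in disuse serum against muscle. The calls of old serum against muscle were lost for each of the 9 libraries left out, with fewer permutations to draw on.

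The count of all miRNAs called, the background of the members' counts, moved by more than 1.5 times in several settings. In old against young muscle 20 became 36 with upper-quartile factors and 9 with thinned libraries; in disuse against young muscle 1 became 0 or 2. In old against young serum 16 became 5 with library totals and 9 when thinned, and 1 to 20 without 1 library; in old against disuse serum 4 became 0 with library totals and with the block. Without the filter, 145 became 270 and 166 became 327 for young and disuse serum against muscle, and 0 became 5 in disuse against young serum and in the interaction with disuse. Thinning took old serum against muscle from 219 to 95. The interaction with age went from 2 to 11 with DESeq2, 5 with upper-quartile factors, 6 without the filter and 1 with the block.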
